A study of Mus musculus with 52 samples.

Results

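A set of 9 immune genes, called the members here, was followed through every RNA library of a mouse study in which beta-catenin signaling was stabilized in endothelial cells (ECs). The rule names them and uses no measured value, although the set was drawn up with earlier results of these data known. It holds 6 genes of MHC class I antigen presentation (H2-K1, H2-D1, B2m, Tap1, Psmb8 and Psmb9) and 3 interferon-induced genes (Isg15, Ifit1 and Ifit3), of 49585 genes in the annotation that had a transcript in the tables. The study asked whether turning on canonical Wnt signaling moves ECs of leaky vessels (pituitary, choroid plexus) toward the state of ECs of the blood-brain barrier (cerebellum, cortex). Its 52 libraries form 26 groups of 2: 24 RNA libraries of sorted cells, 16 RiboTag libraries of RNA from EC ribosomes and of the tissue they came from, and 12 ATAC-seq libraries of sorted ECs. RNA libraries held 12157485 to 37529274 estimated reads in sorted cells and 6409013 to 21399125 in RiboTag.

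In the sorted experiment the WT mice carried Tie2-GFP alone. The stabilized mice carried Tie2-GFP, Pdgfb-CreER and BcatEx3fl, an allele from which Cre removes Ctnnb1 exon 3, and were given 100 µg of 4-hydroxytamoxifen (4HT) at P10, so that the allele, the Cre and 4HT cannot be told apart in this experiment. Tie2-GFP marks ECs, and the sort kept GFP-positive cells (ECs) and GFP-negative cells of cerebellum, anterior pituitary and posterior pituitary; each pituitary sample pooled 20 to 30 animals aged P30 to P90. In the RiboTag experiment both genotypes carried RiboTag and Pdgfb-CreER and received 4HT, and only the stabilized mice carried BcatEx3fl. Pdgfb-CreER, active mainly in ECs, puts an HA tag on their ribosomes, and the bound fraction was pulled down with an HA antibody while the input is an aliquot of the same homogenate of cortex or choroid plexus; these mice were 6 to 8 weeks old and choroid plexus was pooled from 3 to 4 of them. All animals were male. In the sorted set, 1 stabilized anterior pituitary EC library (replicate 2) has labels that name both lobes and was taken as anterior, as its title says. The study's methods describe the 2 replicates of a group as biological, each pituitary one being its own pool, and the p-values measure the spread between these 2. Both lobes were dissected from the same pooled pituitaries, so that anterior and posterior libraries share animals.

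MHC class I molecules show peptides from inside a cell to CD8 T cells. H2-K1 and H2-D1 encode the heavy chains, B2m the light chain (beta-2 microglobulin) that both need to reach the surface, Psmb8 and Psmb9 encode catalytic subunits of the immunoproteasome, which cuts proteins into suitable peptides, and Tap1 encodes a subunit of the transporter that carries the peptides into the endoplasmic reticulum. Interferons raise the transcription of all these genes; type I interferon also induces Isg15, a ubiquitin-like modifier, and Ifit1 and Ifit3, antiviral proteins of one family, through the factor complex ISGF3 and its DNA element, the ISRE.

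By the annotation (GRCm38) all 9 members are protein-coding. H2-K1 lies at chr17:33996017-34000347 on the minus strand, H2-D1 at chr17:35262730-35267499 on the plus strand, Tap1 at chr17:34187553-34197225 (plus), Psmb8 at chr17:34197721-34201454 (plus) and Psmb9 at chr17:34181987-34187764 (minus), all within the MHC region. B2m lies at chr2:122147686-122153083 (plus), Isg15 at chr4:156199424-156200818 (minus), Ifit1 at chr19:34640871-34650009 (plus) and Ifit3 at chr19:34583531-34588731 (plus). Tap1 and Psmb9 are transcribed away from each other from RefSeq starts 226 bp apart, and those of Ifit3 and Ifit1 are 57360 bp apart. For H2-D1, Psmb8 and Psmb9 the RefSeq start lies 364, 474 and 434 bp inside the gene as annotated, and for the other 6 members it lies within 18 bp of the annotated start.

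Stretches upstream of the RefSeq start are shown for the 6 members that hold an NF-kB-like or an ISRE-like match; they are from RefSeq promoters of GRCm38.p6 (300 bases each, 250 before the start of transcription and 50 after it), written along the gene's own strand. Capitals mark matches to an NF-kB-like motif (GGGNNTTCC, in H2-K1 and H2-D1) or to an ISRE-like motif (GAAANNGAA, or TTCNNTTTC on the other strand, in the other 4); both strands were searched and N is any base. The stretches are chr17:34000425-34000483 (H2-K1, minus), chr17:35262898-35262956 (H2-D1, plus; inside the gene by the annotated start), chr2:122147523-122147581 (B2m, plus), chr4:156200851-156200921 (Isg15, minus), chr19:34640755-34640838 (Ifit1, plus) and chr19:34583349-34583460 (Ifit3, plus).
H2-K1: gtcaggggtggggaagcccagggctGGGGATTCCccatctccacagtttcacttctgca
H2-D1: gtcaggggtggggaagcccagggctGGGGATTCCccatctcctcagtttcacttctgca
B2m: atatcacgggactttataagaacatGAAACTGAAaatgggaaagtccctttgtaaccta
Isg15: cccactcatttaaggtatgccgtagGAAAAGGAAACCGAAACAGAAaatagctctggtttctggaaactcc
Ifit1: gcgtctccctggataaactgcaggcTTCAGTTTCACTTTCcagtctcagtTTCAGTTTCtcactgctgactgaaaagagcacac
Ifit3: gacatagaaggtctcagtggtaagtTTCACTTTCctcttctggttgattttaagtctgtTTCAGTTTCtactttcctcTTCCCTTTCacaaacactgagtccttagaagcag

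The stretches of H2-K1 and H2-D1 were identical at 58 of 59 bases, with the NF-kB-like letters between positions -111 and -103 from the start in H2-K1 and between -171 and -163 in H2-D1. Each of the 3 interferon-induced members held 3 ISRE-like matches: the 3 in Isg15 overlap one another between -78 and -58, those in Ifit1 lie between -109 and -76 with the first 2 overlapping, and those in Ifit3 lie between -155 and -94. B2m held 1, from -139 to -131. The ISRE-like letters were present in 8.55% of 32817 promoters of this length and the NF-kB-like letters in 5.82%. Another motif, GAS-like (TTCNNNGAA, its own reverse complement), was present in 8.29% of promoters and, among the members, in Psmb8, from -97 to -89. None of the 3 motifs was found in the windows of Tap1 and Psmb9, which says only that these letters are not there. The same holds for ISRE-like letters in H2-K1 and H2-D1, where none were found. Other forms of these elements were not searched for. In the lists of related genes, ISRE-like letters occurred in 32 of 54 interferon-induced genes with a promoter in the table, 5 of 18 class I pathway genes, 2 of 11 proteasome genes and 0 of 13 receptor and signaling genes.

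Levels are given as CPM, the estimated counts of a gene relative to the library's total after TMM scaling, replicate 1 first, with 1 scaling for all sorted libraries and another for all RiboTag libraries; genes are compared with each other only by TPM, which divides by transcript length. A gene was called when edgeR's quasi-likelihood test gave a Benjamini-Hochberg adjusted p under 0.05 over all genes tested and the fold change was at least 2. Where RNA libraries of 2 groups are said not to overlap, this describes the members. The share of all genes without overlap was not counted. The sorted ECs carried their label's markers: Pecam1 stood at 683 to 1831 CPM in the 12 EC libraries, and 10 endothelial genes summed to 5182 to 13130, against 17.02 to 94.1 in GFP-negative cells. In the RiboTag bound fraction the same 10 genes summed to 720 to 2829, against 42.2 to 252 in the input, but in cortex a list of 12 microglia genes was higher than the endothelial list, at 4229 to 5507 in the bound fraction (both genotypes) against 201 to 235 in the input, and P2ry12 stood at 211 to 439 there. The 4 WT cortex libraries stood apart from the other 12 RiboTag libraries: genes with an effective length under 200 bases held 35.1% to 39.2% of their TPM against 73.3% to 80.0%, and the short RNA Gm23935 alone 0.123% to 0.409% against 31.0% to 52.2%. TPM and CPM differed in sign for 36 of 167 member values between 2 groups (23 after TPM was recomputed without short genes), among them 7 of 7 between genotypes in cortex input and 6 of 9 in cortex bound RNA, 6 of 9 between WT cortex and choroid plexus bound RNA, and 4 of 9 between genotypes in posterior pituitary ECs and in anterior pituitary GFP-negative cells; only 1 of these 36 was a called value.

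By TPM, B2m was the most abundant member in WT ECs of each tissue, with a mean of 710 in cerebellum, 3108 in anterior pituitary and 2983 in posterior pituitary. H2-D1 came next (561, 2115 and 2276) and H2-K1 after it (111, 520 and 524). Below these 3 the order depended on the tissue. In cerebellum ECs Isg15 followed with 46.7, then Psmb8 with 27.4 and Ifit1 with 16.4, and Psmb9 was lowest with 5.69. In posterior pituitary ECs Psmb8 followed with 133 and Psmb9 with 46.7, while Ifit1 was lowest with 2.33, as it was in the anterior pituitary with 4.44. The bound RiboTag fractions of WT cortex and choroid plexus both began with B2m, H2-D1, H2-K1 and Psmb8. The input differed, with B2m, H2-D1, H2-K1 and Ifit3 in cortex and B2m, H2-K1, H2-D1 and Tap1 in choroid plexus.

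**Figure D1:**
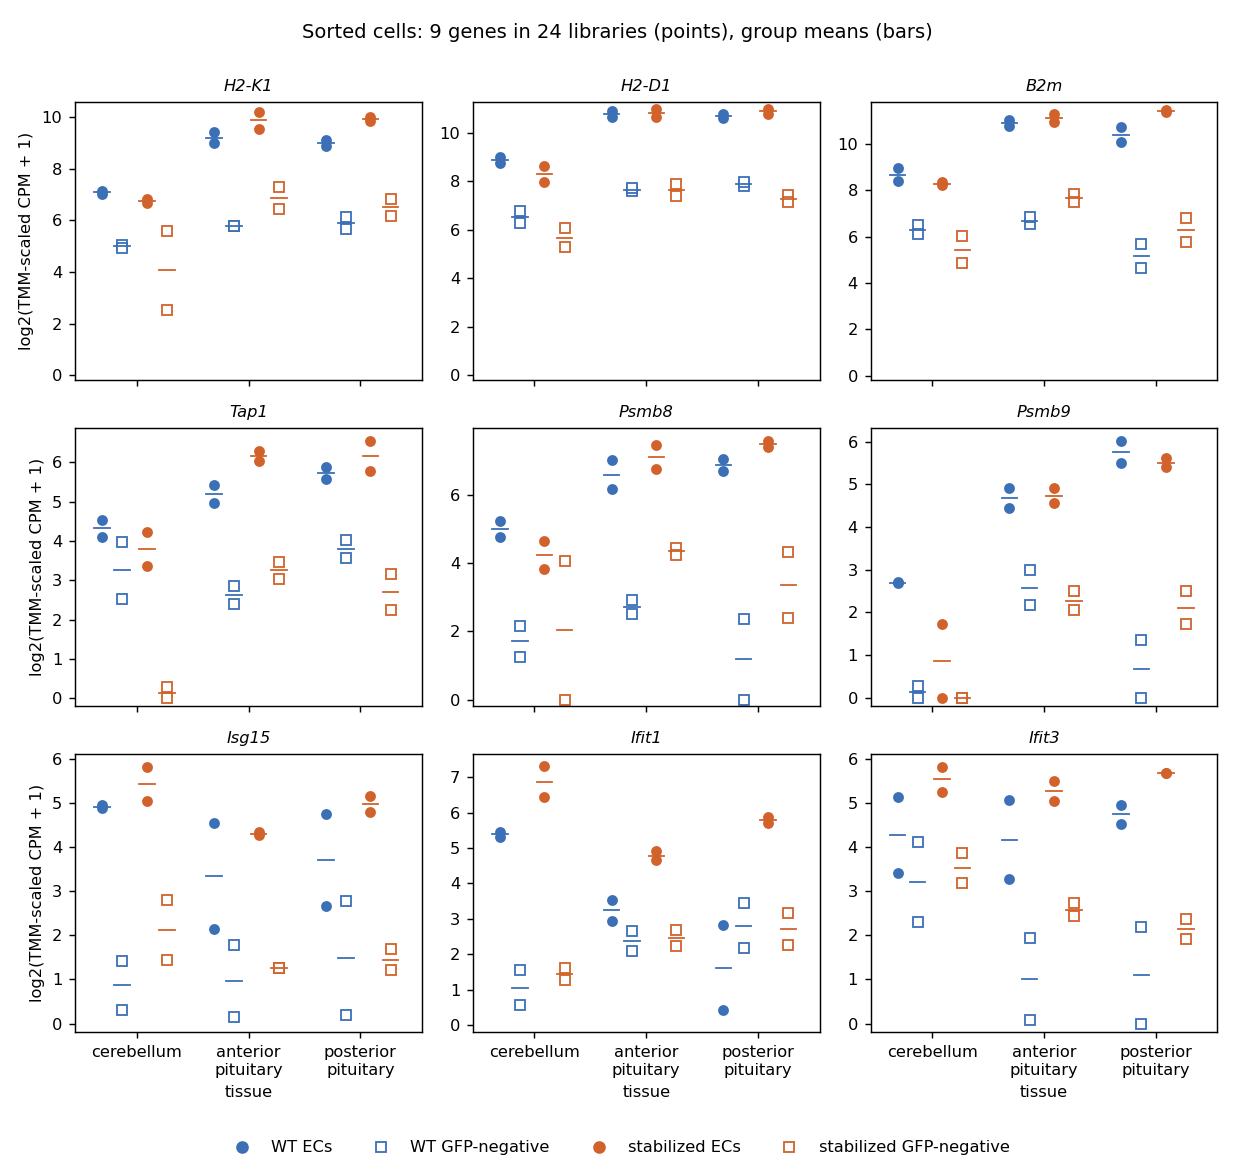
Levels of the 9 members in the 24 sorted libraries, as log2(TMM-scaled CPM + 1), 1 panel a gene, by tissue; filled circles are ECs and open squares GFP-negative cells, 2 libraries a group, coloured by genotype. The class I members sit higher in ECs of the pituitary lobes than in those of the cerebellum, and Ifit1 is higher in cerebellum ECs than in WT pituitary ECs.

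The first comparison asked how WT ECs of barrier vessels differ from those of the pituitary. Of the 6 class I members, 4 were called lower in cerebellum ECs than in ECs of each lobe (H2-K1, H2-D1, B2m and Psmb8). H2-D1 stood at 516 and 430 in cerebellum ECs, at 1880 and 1602 in anterior pituitary ECs and at 1754 and 1567 in posterior pituitary ECs, so that the cerebellum libraries were below all 4 pituitary libraries. The difference was 3.69-fold against the anterior lobe (log2 -1.88, SE 0.29, adjusted p = 0.00153) and 3.53-fold against the posterior lobe (log2 -1.82, SE 0.29, adjusted p = 0.0025). H2-K1 stood at 131 and 139 in cerebellum, 693 and 507 in the anterior lobe and 472 and 555 in the posterior lobe, which was 4.44-fold lower than in the anterior lobe (SE 0.29 on the log2 scale, adjusted p = 0.000471) and 3.82-fold lower than in the posterior lobe (SE 0.28, adjusted p = 0.00127). B2m, at 495 and 336 against 2067 and 1761 and against 1710 and 1070, was 4.62-fold and 3.38-fold lower (adjusted p = 0.000797 and 0.00475). The heavy chains and their light chain thus differed in the same direction. Lists of cell type genes differed between these EC libraries too: 10 endothelial genes summed to 5603 to 6997 CPM in cerebellum against 9244 to 10040 in the anterior and 12017 to 13130 in the posterior lobe, 9 pituitary endocrine genes to 27.8 to 30.6 against 3298 to 5813 and 442 to 2364, 9 mural genes to 3211 to 3475 against 807 to 926 and 552 to 574, 7 MHC class II genes to 3.06 to 4.21 against 55.8 to 175 in the 2 lobes, 14 macrophage and leukocyte genes to 16.04 to 17.9 against 124 to 132 and 8.48 to 9.90, and 5 erythrocyte genes to 4249 to 31811 against 698 to 2016. Their part in the result was not tested. Against the posterior lobe H2-D1 and B2m were not called in a fit of these 2 groups alone (adjusted p = 0.0768 and 0.129, the highest over all alternatives), nor were Psmb8 and Ifit1 (adjusted p = 0.0572 and 0.242), described next, while H2-K1 was.

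The peptide-supply members followed only in part. Psmb8 was also called, with 36.6 and 26.1 CPM in cerebellum ECs against 128 and 72.05 in the anterior lobe (3.21-fold, adjusted p = 0.0228) and 131 and 103 in the posterior lobe (3.77-fold, adjusted p = 0.0126). Its call against the anterior lobe held in 2 of 4 fits that left out 1 library (highest adjusted p = 0.184), and that against the posterior lobe in 3 of 4 (lost without cerebellum replicate 2); both were lost when transcript length was allowed for (adjusted p = 0.0862 and 0.051), and that against the anterior lobe also in a fit of the 2 groups alone (adjusted p = 0.0655). Psmb9 stood at 5.47 and 5.53 in cerebellum, 29.0 and 20.7 in the anterior lobe and 43.8 and 63.8 in the posterior lobe, and Tap1 at 16.3 and 22.2, 42.2 and 30.3, and 46.6 and 58.1. For both genes the cerebellum libraries were below all pituitary libraries, but with the filter on low counts neither passed edgeR's test (adjusted p = 0.327 and 0.124 for Psmb9, 0.313 and 0.082 for Tap1). DESeq2 called both against the posterior lobe (adjusted p = 0.0109 and 0.0113), which made 7 members there against 5 by edgeR, and neither against the anterior lobe. Without the filter edgeR called Psmb9 against the anterior and posterior lobes (adjusted p = 0.00933 and 1.59e-05). It also called Tap1 against the posterior lobe (adjusted p = 0.0413). In a fit of the 2 groups alone Psmb9 was called against the posterior lobe (adjusted p = 0.0245).

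Of the 3 interferon-induced members 1 was called, Ifit1, against the posterior lobe only, and it was higher in cerebellum ECs. Ifit1 stood at 42.9 and 38.6 CPM in WT cerebellum ECs, at 6.75 and 10.5 in the anterior lobe and at 6.08 and 0.352 in the posterior lobe, where the second library rests on 6 reads. It was 12.3-fold higher in cerebellum than in posterior pituitary ECs (log2 3.62, SE 0.84, adjusted p = 0.0264) and 4.71-fold higher than in anterior pituitary ECs without passing the test (adjusted p = 0.164). Against the anterior lobe Ifit1 was called by edgeR without a filter on low counts (adjusted p = 0.000152). It was called there too in a fit of these 2 groups alone (adjusted p = 0.0402). The call against the posterior lobe held in all 4 fits that left out 1 library, with a log2 fold change from 2.73 to 6.84, and was lost when the average transcript length of each gene was allowed for (log2 3.34, adjusted p = 0.0965; range over all alternatives 2.2e-10 to 0.242). Isg15, with 28.3 and 30.0 in cerebellum against 22.3 and 3.45 and against 25.7 and 5.33, had the same sign without passing (adjusted p = 0.498 and 0.649). Ifit3 (log2 0.08 and -0.27) overlapped between all 3 tissues, at 33.9 and 9.54, 8.60 and 32.4, and 22.1 and 29.9. Of all genes tested, 5.26% were called between cerebellum and anterior and 4.4% between cerebellum and posterior pituitary ECs, where 4 and 5 of the 9 members were. Between the lobes 0 members were called by edgeR or DESeq2 and 0 had an unadjusted p under 0.05, against 0.994% of all genes called; with the replicate number as a block, 0 were called too.

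Other genes of the 2 pathways gave a mixed picture in the same comparison. Of 24 further class I pathway genes tested, 1 was higher and 5 lower in cerebellum than in anterior pituitary ECs (median log2 -0.88 against 0 over all genes). H2-Q6, a non-classical class I heavy chain, stood at 18.1 and 6.23 against 158 and 132 (log2 -3.58, adjusted p = 0.00262), whereas Fcgrt, the neonatal Fc receptor that carries IgG across cells, was higher at 299 and 300 against 87.2 and 107 (log2 1.62, adjusted p = 0.00708). Of 73 other interferon-induced genes, 0 were higher and 8 lower (median log2 0.06); among these Socs3, an inhibitor of cytokine receptors, stood at 20.5 and 4.49 against 383 and 460 (log2 -5.09, adjusted p = 0.000462). Of 13 receptor and signaling genes, Ifnar1, a chain of the type I interferon receptor, was higher in cerebellum ECs at 260 and 264 against 23.4 and 18.8 (log2 3.63, SE 0.41, adjusted p = 0.000127), as was the kinase Jak2 at 146 and 134 against 52.9 and 53.1. Ifngr1, a chain of the receptor for interferon gamma, was lower at 69.0 and 103 against 198 and 179 (log2 -1.13, adjusted p = 0.031). Against the posterior lobe Ifnar1, Jak2 and Ifngr1 passed with the same signs. There 0 class I pathway genes were higher and 5 lower, and of the 73 interferon-induced genes 1 was higher and 8 lower (median log2 -0.28). The higher one was Gbp3, a guanylate-binding protein, at 70.5 and 57.3 against 14.9 and 17.99 (log2 1.95, adjusted p = 0.00269). The constitutive proteasome list had 0 of 14 called in either comparison.

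Class I and interferon-induced members were measured next in WT ECs against the GFP-negative cells of the same tissue, most of which are other cell types. Every member but Ifit1 in the posterior lobe had a higher mean in ECs. The 9 mural genes were higher there as well, at 572 to 814 CPM in GFP-negative cells and 3211 to 3475 in ECs of cerebellum, 141 to 175 and 807 to 926 in the anterior and 20.5 to 48.5 and 552 to 574 in the posterior lobe. MHC class II genes summed to 20.8 to 28.3 and 131 to 175 in the posterior lobe, and macrophage and leukocyte genes to 78.3 to 88.3 and 124 to 132 in the anterior lobe; each of these 2 lists was lower in ECs in the other 2 tissues. In the anterior lobe astrocyte genes summed to 112 to 128 in GFP-negative cells and 526 to 565 in ECs. Erythrocyte genes there summed to 442 to 563 and 698 to 1242. In the posterior lobe the same lists summed to 161 to 183 and 257 to 340, and to 1.70 to 111 and 766 to 2016. Choroid plexus epithelium genes in that lobe summed to 5.88 to 18.8 and 57.6 to 74.4. In cerebellum astrocyte genes were lower in ECs and the other lists overlapped. The part of all these lists in the result was not tested. B2m stood at 90.1 and 67.4 in GFP-negative cells of cerebellum, 91.4 and 114 in the anterior lobe and 50.7 and 24.3 in the posterior lobe, and was 5.27-fold, 18.7-fold and 37.0-fold higher in ECs (SE on the log2 scale 0.45, 0.49 and 0.51; adjusted p = 0.00147, 1.4e-05 and 1.55e-06). In the posterior lobe the B2m value ranged from log2 4.90 to 5.98 with 1 library left out, the highest without GFP-negative replicate 1. H2-D1, at 109 and 76.9, 193 and 207, and 221 and 246 in GFP-negative cells, was 5.1-fold, 8.7-fold and 7.1-fold higher in ECs (adjusted p = 0.000126, 1e-05 and 1.35e-05), and H2-K1 was 4.37-fold, 11.2-fold and 8.67-fold higher (adjusted p = 0.0288, 0.0013 and 0.00211).

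The remaining calls differed by tissue. In cerebellum Ifit1 stood at 0.480 and 1.93 in GFP-negative cells and was 33.8-fold higher in ECs (adjusted p = 0.00271), and Isg15 at 0.24 and 1.69 was 30.2-fold higher (adjusted p = 0.0491). With 1 library left out Ifit1 ranged from log2 4.46 to 6.5 and kept its call, while Isg15 ranged from 4.17 to 7.01 and kept it only without GFP-negative replicate 2. H2-K1 lost its call there without either GFP-negative library. In the anterior pituitary Tap1, at 4.31 and 6.24, was 6.87-fold higher in ECs (adjusted p = 0.0156, kept in 2 of 4). In the posterior pituitary Psmb8, at 0 and 4.16, and Psmb9, at 0 and 1.56, were higher in ECs (adjusted p = 0.0226 and 0.0311). Psmb9 lost its call without GFP-negative replicate 1 and Psmb8 kept it in all 4 fits, with ranges of log2 5.25 to 13.6 and 4.96 to 14.7, both highest without GFP-negative replicate 2, which leaves a group at 0. Ifit1 there overlapped, with 3.54 and 9.88 in GFP-negative cells against 6.08 and 0.352 in ECs. In all, edgeR called 5, 4 and 5 of 9 members in cerebellum, anterior and posterior pituitary and DESeq2 6, 7 and 7, against 11.3%, 11.3% and 14.5% of all genes by edgeR. DESeq2 added Psmb9 in cerebellum, Psmb8, Isg15 and Ifit3 in the anterior and Tap1 and Ifit3 in the posterior lobe. When transcript length was allowed for, Isg15 and H2-K1 in cerebellum and Tap1 in the anterior lobe lost their calls, as Psmb8 and Psmb9 in the posterior lobe did in a fit of its 2 groups alone. With each replicate number taken as 1 preparation of ECs and GFP-negative cells, 6 were called in each tissue, Psmb9 being added in cerebellum, Isg15 and Ifit3 in the anterior and Ifit3 in the posterior lobe. The second WT cerebellum GFP-negative library differed from the first in choroid plexus epithelium genes (7 genes summing to 7872 against 8.95), whose part in the result was not tested. Of the 24 further class I pathway genes, 10, 6 and 11 were higher in ECs and 0, 1 and 0 lower; of 73 interferon-induced genes, 32, 24 and 28 were higher and 1, 1 and 0 lower. By the rule for named genes these included H2-T23, the Qa-1 heavy chain, at 27.4 and 15.95 against 1.71 and 0.895 in cerebellum (log2 4.05, adjusted p = 0.00129), and Gbp5, another guanylate-binding protein, at 74.2 and 62.7 against 0.45 and 1.03 (log2 6.53, adjusted p = 0.000658).

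The main question was what stabilized beta-catenin did to these genes in ECs. In posterior pituitary ECs 1 member was called, Ifit1, against 1.79% of all genes. It stood at 6.08 and 0.352 CPM in WT and at 57.4 and 50.9 in stabilized ECs, without overlap. The change was 16.1-fold (log2 4.01, SE 0.85, adjusted p = 0.0364), and the stabilized libraries were above both WT cerebellum EC libraries (42.9 and 38.6), a difference that was not tested. The call held in each of 4 fits that left out 1 library (log2 3.12 to 7.25). It was lost when gene length was allowed for (log2 3.23, adjusted p = 0.156) and in a fit of these 2 groups alone (adjusted p = 0.245, the highest over all alternatives, which began at 3.94e-12). The effective length of Ifit1 was 872 to 1215 bases in the 4 WT pituitary EC libraries and 1414 to 1642 in the 4 stabilized ones.

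The class I members of posterior pituitary ECs moved by under 2-fold and none passed. B2m stood at 1710 and 1070 in WT and 2839 and 2677 in stabilized ECs (log2 0.96, SE 0.30, adjusted p = 0.161), and H2-K1 at 472 and 555 against 931 and 1025 (log2 0.91, SE 0.28, adjusted p = 0.148). For both genes the stabilized libraries were above both WT libraries. B2m passed when WT posterior pituitary EC replicate 1 was left out (log2 1.37). H2-D1 stood at 1754 and 1567 against 1759 and 2024 (log2 0.16, SE 0.28), Psmb8 at 131 and 103 against 170 and 192, and Tap1 at 46.6 and 58.1 against 54.0 and 92.6. Psmb9 overlapped, at 43.8 and 63.8 against 48.1 and 41.1. Of the 2 other interferon-induced members, Isg15 stood at 25.7 and 5.33 against 34.5 and 26.7, and Ifit3 at 22.1 and 29.9 against 49.8 and 49.8 (adjusted p = 0.638 and 0.534). By TPM the sign was the opposite for H2-K1 (log2 ratio -0.25), H2-D1 (-0.82), Psmb8 (-0.03) and Ifit3 (-0.02); with TPM recomputed without short genes it was so for H2-D1 alone (-0.52).

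In anterior pituitary ECs 0 of 9 members were called by edgeR or by DESeq2, 2 had an unadjusted p under 0.05, and 0.458% of all genes were called. All 9 fitted log2 fold changes were above 0, from 0.03 (H2-D1) to 1.61 (Ifit1), with a median of 0.53 against 0.06 over all genes. Ifit1 stood at 6.75 and 10.5 in WT and 24.3 and 29.0 in stabilized ECs (log2 1.61, SE 0.77, adjusted p = 0.698), H2-K1 at 693 and 507 against 1190 and 758 (log2 0.69, SE 0.28), and Tap1 at 42.2 and 30.3 against 77.7 and 64.1 (log2 0.95, SE 0.41). These 3 did not overlap between genotypes, while H2-D1, B2m, Psmb8, Psmb9, Isg15 and Ifit3 did. Without a filter on low counts edgeR called Ifit1 (log2 1.62, adjusted p = 0.0417). Isg15 turned from log2 0.53 to -0.25 without WT replicate 2, whose level was 3.45 against 22.3 in replicate 1.

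In cerebellum ECs 0 of 9 were called by edgeR or DESeq2, 1 had an unadjusted p under 0.05, and 0.648% of all genes were called. The 6 class I members had fitted changes below 0, from -0.36 (H2-K1) to -2.25 (Psmb9), and the 3 interferon-induced members above 0. H2-D1 stood at 516 and 430 in WT and 396 and 250 in stabilized ECs (log2 -0.57, SE 0.28, adjusted p = 0.53). Psmb9 stood at 5.47 and 5.53 against 2.296 and 0 (adjusted p = 0.508). Among the fits that left out 1 library, it was called only without stabilized replicate 1. It was also called by edgeR without a filter on low counts (log2 -2.23, adjusted p = 0.022). Ifit1 stood at 42.9 and 38.6 against 85.4 and 157 (log2 1.56, SE 0.77, adjusted p = 0.527), Ifit3 at 33.9 and 9.54 against 55.1 and 37.1, and Isg15 at 28.3 and 30.0 against 31.9 and 55.5. For each of these 3 genes both stabilized libraries were above both WT libraries, and none passed the test with the filter on low counts. Without that filter edgeR called Ifit1 (log2 1.57, adjusted p = 0.0436). In these libraries 9 mural genes summed to 3211 to 3475 CPM in WT and 2259 to 2417 in stabilized ECs. The 5 fibroblast genes summed to 25.1 to 33.0 and 0.757 to 3.36, and 9 pituitary endocrine genes to 27.8 to 30.6 and 1.06 to 11.8. What part these lists had in the members' values was not tested.

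**Figure D2:**
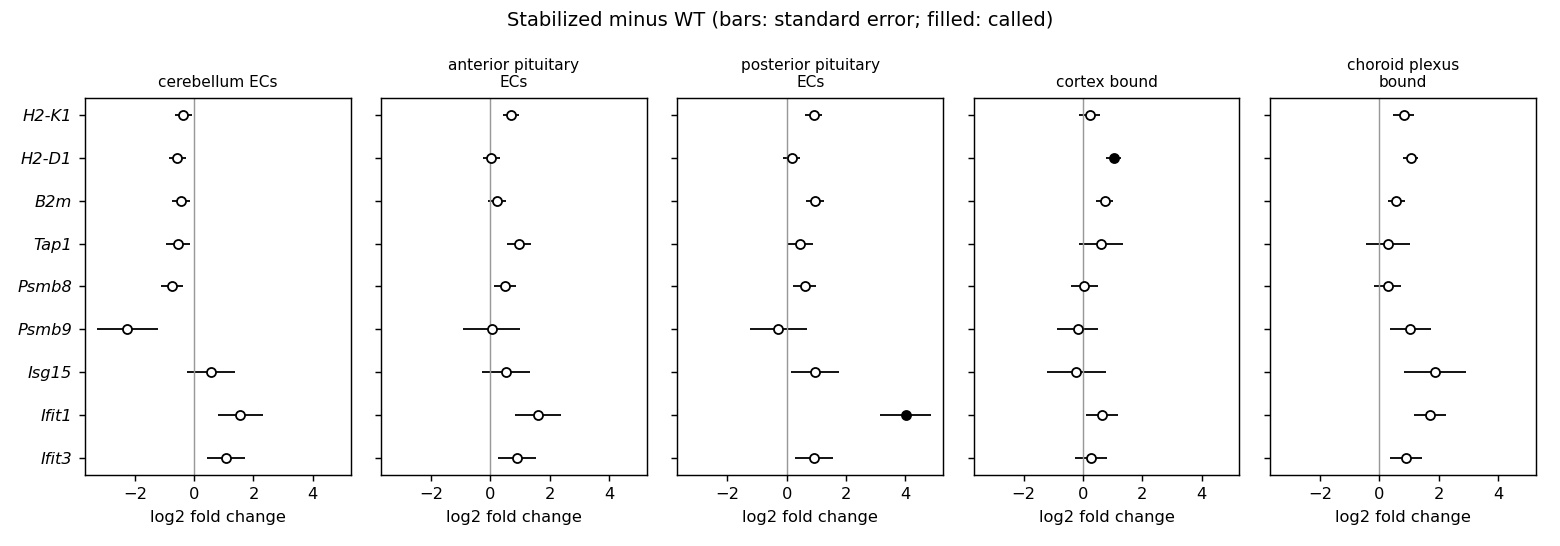
Log2 fold change of each member, stabilized over WT, with bars of 1 SE, 1 panel a comparison. Ifit1 in posterior pituitary ECs (4.01) and H2-D1 in bound cortex RNA (1.03) are the 2 called values, and the class I members lie below 0 in cerebellum ECs and mostly above 0 in the pituitary lobes.

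The responses of the tissues were tested against each other. 0 of 9 members were called for the posterior against the anterior lobe, for the posterior lobe against cerebellum or for the anterior lobe against cerebellum, where 0.128%, 0.927% and 0.519% of all genes were; 1, 4 and 3 members had an unadjusted p under 0.05, and DESeq2 called 0, 2 and 0. The 2 were B2m (1.39 higher in the posterior response on the log2 scale, SE 0.43, edgeR adjusted p = 0.184) and H2-K1 (1.27, SE 0.39, adjusted p = 0.185). Over all genes the median of these 2 differences from cerebellum was itself 0.351 and 0.359, so that relative to it B2m and H2-K1 differed by less. Ifit1 in the posterior lobe differed from the anterior lobe by 2.4 (SE 1.08, adjusted p = 0.543). Without a filter on low counts edgeR called this difference (adjusted p = 0.0245). For the posterior lobe against cerebellum it then called Ifit1 and B2m (adjusted p = 0.0108 and 0.0159). The comparisons of a tissue share their WT libraries with the comparison of WT ECs above, so a low WT value, such as Ifit1 in WT posterior pituitary ECs, enters both.

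Leukocyte genes were higher in the stabilized pituitary EC libraries. The 7 MHC class II genes, which present outside antigen and are expressed by macrophages and dendritic cells, summed to 55.8 to 87.2 CPM in WT and 2163 to 2316 in stabilized anterior pituitary ECs, to 131 to 175 against 2418 to 2917 in the posterior lobe, and to 3.06 to 4.21 against 6.90 to 24.1 in cerebellum; 3 of 7 rose by the test in each lobe. Cd74, the invariant chain, stood at 107 and 76.7 against 1452 and 1217 in the posterior lobe. The 14 macrophage and leukocyte genes summed to 124 to 132 against 339 to 512 in the anterior lobe and to 8.48 to 9.90 against 390 to 575 in the posterior lobe, where 6 of the 14 were at 0 in both WT libraries and Ptprc (CD45) stood at 1.62 and 0 against 63.5 and 29.1. The 12 microglia genes summed to 32.6 to 51.05 against 299 to 642 in the anterior and 58.4 to 69.2 against 602 to 838 in the posterior lobe, with P2ry12 at 5.72 and 3.65 in the stabilized posterior libraries. The 13 lymphocyte genes summed to at most 13.2 in any EC library. They summed to 0 to 3.09 in WT and 12.05 to 13.2 in stabilized posterior pituitary ECs, and overlapped between genotypes in the anterior lobe. The 10 endothelial genes summed to 12017 to 13130 in WT and 6179 to 6819 in stabilized ECs of the posterior lobe. Kdr stood at 3992 and 5075 against 1128 and 1353, and Pecam1, Cdh5, Tek, Tie1 and Egfl7 were lower too. Esam was higher, at 506 and 505 against 601 and 578, as was Erg, and Emcn and Fli1 overlapped. There 7 choroid plexus epithelium genes summed to 57.6 to 74.4 against 1758 to 2196, and in the anterior lobe to 4.36 to 4.58 against 205 to 369. Ttr of this list stood at only 0.0493 and 1.89 in stabilized posterior and 0.173 and 0.249 in stabilized anterior pituitary ECs. Other genes of the list held these sums. The part of these differences in the levels of the members was not tested. In bulk samples, a change in the number of cells of a type and a change in RNA per cell cannot be told apart.

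Few related genes passed the test in the same fits. In posterior pituitary ECs 1 of 24 class I pathway genes rose and 0 fell (median log2 0.23 against 0.01 over all genes): H2-T23 at 43.5 and 55.3 in WT against 164 and 185 (log2 1.80, SE 0.32, adjusted p = 0.0164). Of 73 interferon-induced genes 1 rose and 1 fell (median log2 0.62): Gbp3 stood at 14.9 and 17.99 against 95.6 and 79.8 (log2 2.39, adjusted p = 0.00227), and Slfn5, of the Schlafen family, at 845 and 1194 against 308 and 404 (log2 -1.54, adjusted p = 0.0489). In anterior pituitary ECs 0 of 24 and 0 of 73 were called, with medians of 0.24 and 0.42 against 0.06. In cerebellum ECs 0 of 73 interferon-induced genes were called (median 0.00234 against -0.08), and 1 of 24 class I pathway genes fell, Cd1d1, a lipid-presenting molecule that was already at 0.701 and 1.44 in WT and 0 in both stabilized libraries. Receptor and signaling genes and the constitutive proteasome had 0 called in each of the 3 tissues.

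GFP-negative cells, in which no recombination was intended, gave the background. 0 of 9 members were called by edgeR in cerebellum, anterior and posterior pituitary, where 0.76%, 0.0408% and 0.133% of all genes were; 2, 0 and 1 had an unadjusted p under 0.05 and DESeq2 called 1, 0 and 0. B2m stood at 91.4 and 114 against 230 and 179 in anterior cells, stabilized second (log2 1.03, SE 0.48, adjusted p = 0.771) and at 50.7 and 24.3 against 109 and 54.1 in posterior cells. H2-K1 stood at 53.9 and 53.5 against 158 and 85.7 in anterior cells. Tap1 in cerebellum, the member DESeq2 called, stood at 14.7 and 4.79 in WT and 0 and 0.22 in stabilized cells (edgeR adjusted p = 0.089), where the median over all genes was -0.26. Tapbp, from the list of class I pathway genes, was called lower there. It stood at 24.9 and 28.5 in WT and 1.89 and 1.08 in stabilized cells (log2 -4.17, edgeR adjusted p = 0.00211). MHC class II genes summed to 256 to 284 in WT and 172 to 981 in stabilized GFP-negative cells of the anterior lobe, and to 20.8 to 28.3 and 48.3 to 289 in those of the posterior lobe. Macrophage and leukocyte genes summed to 78.3 to 88.3 and 116 to 318 in the anterior lobe, 17.6 to 57.2 and 72.9 to 172 in the posterior lobe, and 190 to 304 and 57.5 to 99.7 in cerebellum. In cerebellum 8 neuron genes summed to 1178 to 1740 in WT and 3275 to 5196 in stabilized cells. The 5 fibroblast genes summed to 221 to 393 and 111 to 198 there, and were higher in stabilized cells of both lobes. Lymphocyte, mural and erythrocyte genes were higher in stabilized cells of both lobes too. In the anterior lobe they summed to 5.09 to 14.2, 141 to 175 and 442 to 563 in WT. The stabilized sums there were 31.9 to 87.6, 342 to 476 and 3218 to 7980. Posterior lymphocyte genes summed to 0.0824 to 2.22 and 13.1 to 13.7. Some further lists also differed, such as neuron genes, which were lower in stabilized posterior cells. The part of these lists in the levels was not tested.

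RiboTag compared stabilized mice with WT mice that carried Cre and received 4HT as well. In WT mice the bound fraction was enriched for the members. In cortex 8 of 9 were called higher in bound than in input RNA, against 11.6% of all genes: H2-K1 at 58.7 and 42.2 against 5.81 and 4.50 (9.77-fold, adjusted p = 1.22e-05), H2-D1 at 93.1 and 83.6 against 15.4 and 13.5 (6.11-fold, adjusted p = 4.02e-06), B2m at 145 and 128 against 15.5 and 17.2 (8.35-fold, adjusted p = 2.78e-06). Psmb8 was 20.1-fold and Tap1 7.94-fold higher (adjusted p = 0.000139 and 0.00653), and Ifit1 6.49-fold (adjusted p = 0.00327). Isg15 stood at 7.08 and 2.80 against 0.0505 and 0.0489, about 1 read in each input library. Ifit3 alone did not pass edgeR's test (adjusted p = 0.115), and it was called by DESeq2 (adjusted p = 0.0422). With 1 library left out, Psmb8 ranged from log2 4.08 to 5.27, Tap1 from 2.53 to 3.82, Ifit1 from 2.50 to 3.39, Isg15 from 5.72 to 7.20, Psmb9 from 4.35 to 4.99 and H2-K1 from 3.25 to 3.88. Tap1 lost its call without input replicate 2, with length allowed for and in a fit of the 2 groups alone; the others kept theirs in these fits. The bound cortex fraction was also the one with microglia genes at 4229 to 5507, and their part in these values was not tested. Of 24 class I pathway genes 10 were higher and 0 lower in bound cortex RNA, and of 73 interferon-induced genes 44 and 0 (medians 1.89 and 2.58 against -0.33 over all genes). In choroid plexus 6 of 9 were called, against 15.3% of all genes: H2-D1 at 115 and 157 against 32.2 and 39.7 (3.77-fold, adjusted p = 5.95e-05), H2-K1 at 78.4 and 78.3 against 31.6 and 31.1 (2.5-fold, adjusted p = 0.00684), Psmb8 6.1-fold, Psmb9 9.21-fold, Ifit1 5.85-fold and Ifit3 3.97-fold. H2-D1 and Psmb8 kept their calls in all 4 fits that left out 1 library, Ifit1 in 3, and H2-K1, Psmb9 and Ifit3 in 1 each, so that 2 members were called without WT input replicate 1 and 3 without WT input replicate 2. Ifit1 ranged from log2 1.95 to 2.96, the lowest without bound replicate 1. H2-K1 also lost its call with length allowed for (adjusted p = 0.122) and Ifit3 without a filter on low counts (adjusted p = 0.062). Leukocyte genes were also higher in the bound choroid plexus RNA: 14 macrophage and leukocyte genes summed to 59.1 to 60.4 in input and 285 to 424 in bound RNA, 12 microglia genes to 90.07 to 97.0 and 387 to 498, and 7 MHC class II genes to 66.7 to 73.2 and 256 to 373, and their part in these values was not tested. B2m was 1.81-fold higher (adjusted p = 0.0179), under the fold required, and Tap1 overlapped.

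**Figure D3:**
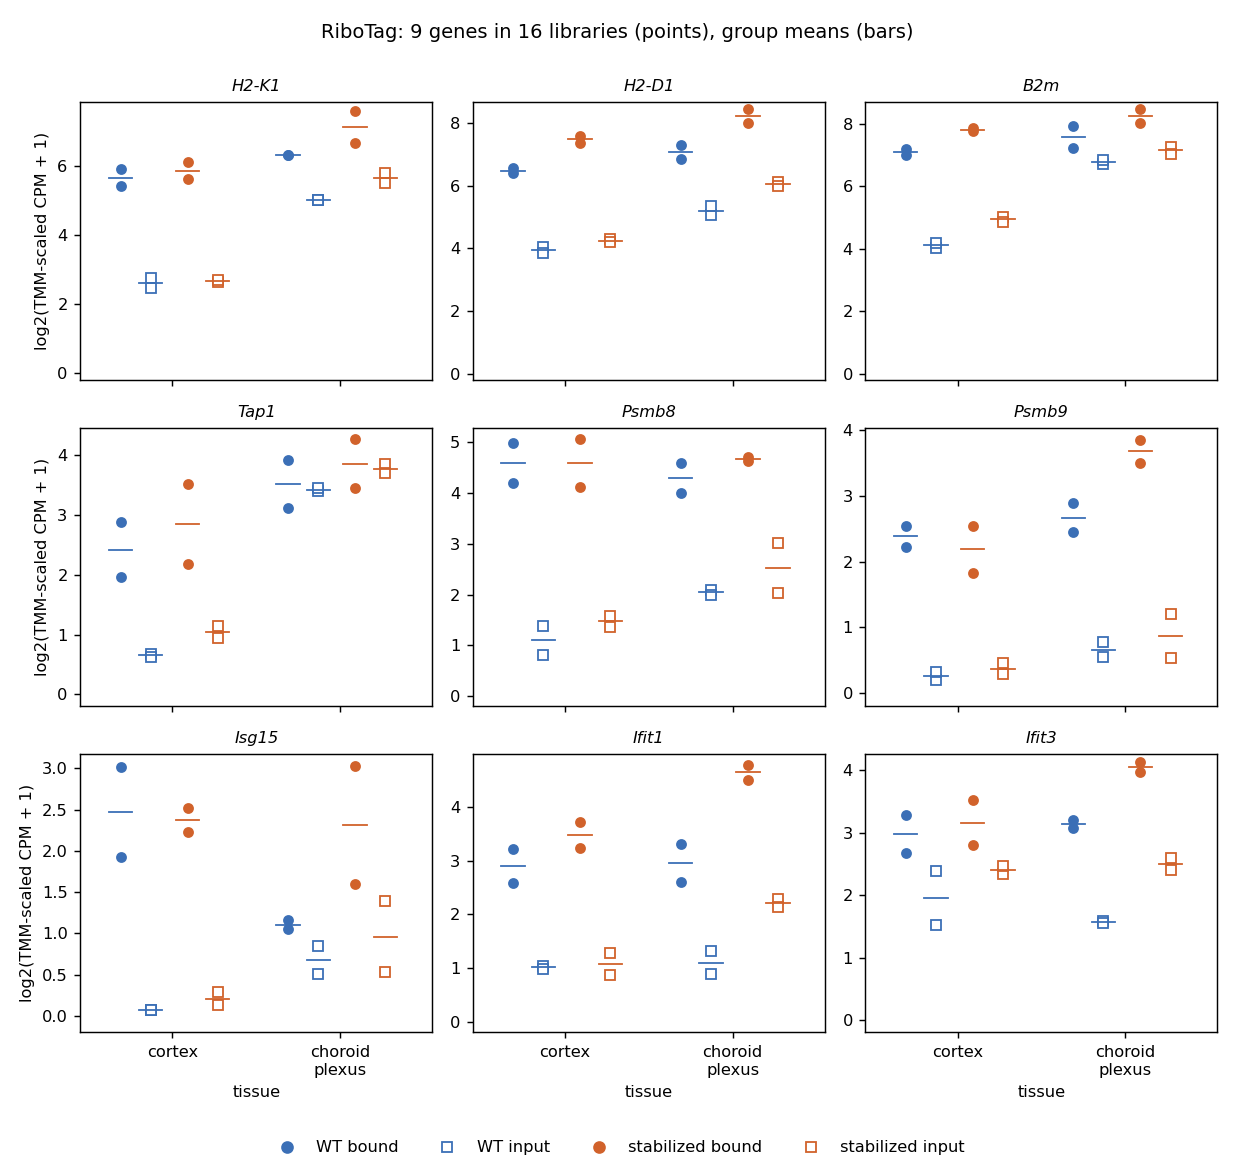
Levels of the 9 members in the 16 RiboTag libraries, as log2(TMM-scaled CPM + 1), 1 panel a gene, by tissue; filled circles are the bound fraction and open squares the input, 2 libraries a group, coloured by genotype. H2-D1 and B2m are higher in both stabilized bound libraries than in both WT ones in each tissue.

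Between genotypes the heavy chain gene H2-D1 was the member to pass in bound RNA of cortex. It stood at 93.1 and 83.6 in WT and 190 and 165 in stabilized bound RNA, the 1 of 9 members called, 2.04-fold higher (log2 1.03, SE 0.26, adjusted p = 0.0481), against 6.32% of all genes. This call sat at both thresholds: it was lost in 3 of 4 fits that left out 1 library (WT replicate 2 or either stabilized library; highest adjusted p = 0.281), with another scaling (RLE), with a replicate block, with the class I heavy chain genes summed (log2 0.61), and when length was allowed for (log2 0.25, adjusted p = 0.749; range over all alternatives 0.00838 to 0.749). The effective length of H2-D1 was 516 to 661 bases in WT and 819 to 1091 in stabilized cortex libraries, and by TPM its mean was lower in stabilized bound cortex (log2 ratio -0.75, or 0.60 without short genes). The 10 endothelial genes summed to 720 to 1404 in WT and 1709 to 1819 in stabilized bound cortex RNA, 8 neuron genes to 2226 to 3337 and 1452 to 1466, 7 astrocyte genes to 2503 to 4353 and 948 to 1504, 14 macrophage and leukocyte genes to 746 to 951 and 1031 to 1106, and 7 MHC class II genes to 7.91 to 22.7 and 28.4 to 61.3, and their part in the result was not tested. B2m stood at 145 and 128 against 215 and 230 (log2 0.73, SE 0.28, adjusted p = 0.161). Isg15, Psmb8, Psmb9, Tap1, H2-K1 and Ifit3 overlapped between genotypes, and Ifit1 stood at 8.35 and 5.01 against 8.40 and 12.2.

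In choroid plexus bound RNA 0 of 9 members were called by edgeR, 3 had an unadjusted p under 0.05, DESeq2 called 1 (H2-D1), and 0.852% of all genes were called. All 9 fitted changes were above 0, with a median of 0.91 against -0.09 over all genes. H2-D1 stood at 115 and 157 in WT and 347 and 252 in stabilized RNA (log2 1.06, SE 0.26, adjusted p = 0.112), and H2-K1 at 78.4 and 78.3 against 193 and 100 (log2 0.82, SE 0.35, adjusted p = 0.338). Ifit1 stood at 8.89 and 5.05 against 26.8 and 21.7 (log2 1.70, SE 0.54, adjusted p = 0.207), B2m at 149 and 241 against 356 and 259, and Ifit3 at 7.45 and 8.26 against 16.5 and 14.8. In all, 8 members did not overlap between genotypes, all but Tap1, and the share of all genes that did so was not counted. The lists gave 0 of 24 class I pathway genes and 1 of 72 interferon-induced genes called, with 64 of the 72 above 0 (median 0.70): Ifitm3, a membrane protein that blocks virus entry, stood at 46.0 and 51.4 against 170 and 162 (log2 1.69, SE 0.23, adjusted p = 0.0119). Macrophage and leukocyte genes summed to 285 to 424 in WT and 642 to 690 in stabilized bound choroid plexus RNA, endothelial genes to 1636 to 2108 and 2436 to 2829, and choroid plexus epithelium genes to 37914 to 38358 and 21691 to 24963, and their part in these values was not tested.

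No difference between the bound responses passed the test: 0 of 9 members were called for choroid plexus minus cortex, against 2.15% of all genes, with 0 at an unadjusted p under 0.05 and 0 by DESeq2. For H2-D1 the difference was 0.03 (SE 0.36) and for Ifit1 1.07 (SE 0.75). Between WT cortex and WT choroid plexus bound RNA 29.7% of all genes were called but 0 members, with 0 at an unadjusted p under 0.05 and 0 by DESeq2; H2-D1 stood at 93.1 and 83.6 against 115 and 157. By TPM 6 of 9 members had the opposite sign in this comparison (3 without short genes), and H2-D1 had a mean of 108 in cortex and 44.6 in choroid plexus. In bound cortex RNA 5 of 72 interferon-induced genes rose and 0 fell (median 0.39), a share near the 6.32% of all genes called there: Irf9, the DNA-binding subunit of ISGF3, stood at 4.70 and 7.40 in WT against 22.9 and 31.1 (log2 2.19, SE 0.36, adjusted p = 0.0105). Both chains of the type I interferon receptor rose there, Ifnar1 from 44.6 and 38.8 to 93.2 and 83.4 (log2 1.10, adjusted p = 0.0448) and Ifnar2 from 34.6 and 33.5 to 89.8 and 72.1 (log2 1.28, adjusted p = 0.0372), and of 14 constitutive proteasome genes 1 rose and 3 fell. These cortex values compare the WT libraries that stood apart with the others, and this difference in the libraries cannot be told apart from genotype.

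In input RNA 7 members had enough reads to be tested, and 0 of 7 were called in cortex or in choroid plexus, where 11.8% and 0.106% of all genes were; 3 and 5 had an unadjusted p under 0.05 and DESeq2 called 0 and 0. Psmb9 and Isg15 were too low in the input. B2m in cortex input stood at 15.5 and 17.2 in WT and 31.4 and 28.3 in stabilized tissue (log2 0.96, SE 0.12, adjusted p = 0.00173), 1.94-fold and so just under the fold required; it was called without WT or stabilized cortex input replicate 2, and its TPM was lower in stabilized tissue (log2 ratio -0.67). Of 10 endothelial genes Pecam1 was higher in stabilized cortex input, at 5.51 and 7.87 against 99.4 and 100.1, while the other 9 summed to 47.3 and 34.3 in WT and 37.2 and 30.3 in stabilized tissue. Cdh5 among them stood at 8.03 and 6.11 against 9.27 and 7.24. In choroid plexus input H2-D1 stood at 32.2 and 39.7 against 68.6 and 62.8 (log2 0.84, SE 0.14, adjusted p = 0.105) and Ifit1 at 0.851 and 1.49 against 3.88 and 3.41. Macrophage and leukocyte genes summed to 59.1 to 60.4 in WT and 164 to 220 in stabilized choroid plexus input, MHC class II genes to 66.7 to 73.2 and 132 to 214, and microglia genes to 90.07 to 97.0 and 149 to 166, and their part in these values was not tested.

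The 2 groups of members were also compared as profiles over libraries. The mean log2(TPM + 1) of the 6 class I members and that of the 3 interferon-induced members had a Pearson correlation of -0.556 over the 12 EC libraries, but 0.673 over the 24 sorted, 0.949 over the 16 RiboTag and 0.797 over all 40 libraries. These are descriptions over libraries that share a gate, a tissue and depth differences, and carry no test. Pairs of class I members correlated at 0.707 to 0.98 over the 12 EC libraries and pairs of interferon-induced members at -0.15 to 0.732. Among 9315 genes with a mean of at least 5 TPM, the patterns most like the class I members over the 40 libraries were those of H2-Q4 (r = 0.961), Rhoc (0.953), Thbd (0.951), Irgm2 (0.944) and H2-Q6 (0.933), and those most like the interferon-induced members were of Gbp5 (0.925), Ly6a (0.925), Gimap1 (0.92), Procr (0.919) and Gbp7 (0.916).

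**Figure D4:**
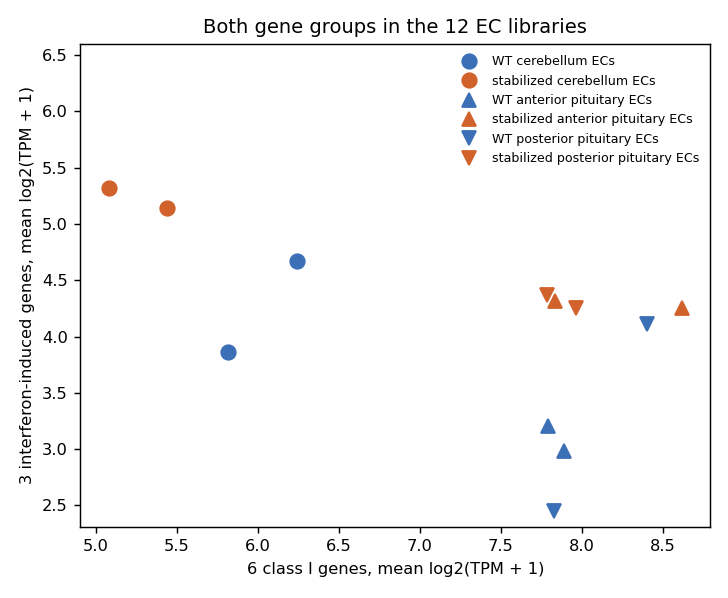
Mean log2(TPM + 1) of the 6 class I members (horizontal) against that of the 3 interferon-induced members (vertical) in the 12 EC libraries, by tissue (marker) and genotype (colour). Cerebellum ECs lie at low class I and pituitary ECs at high class I values.

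ATAC-seq, which maps open chromatin, was deposited as peaks called in each library, so that only presence and height are compared. With a peak of fold enrichment over 2 within 500 bp of the start counted as present, 96 of 108 member and library pairs had one, 7 to 9 of 9 members in a library, where 36.0% to 43.3% of 32812 starts had one. H2-K1, H2-D1, B2m, Tap1, Psmb8, Psmb9 and Ifit3 had a peak in 12 of 12 libraries; that of H2-K1 was 9.66-fold to 17.9-fold over background and that of B2m 9.04-fold to 16.5-fold. Tap1 and Psmb9 share their peak, as their starts are 226 bp apart. Ifit1 had a peak in 10 of 12 libraries. None was called in either WT cerebellum EC library, while it was 10.4-fold and 8.77-fold in stabilized cerebellum ECs, 12.2-fold and 13.1-fold in WT and 14.9-fold and 18.4-fold in stabilized anterior pituitary ECs, and 6.28-fold and 4.3-fold in WT and 6.95-fold and 9.0-fold in stabilized posterior pituitary ECs. In each tissue both stabilized libraries were above both WT libraries for Ifit1, as they were for H2-K1, B2m and the peak that Tap1 and Psmb9 share. This order held for 7, 6 and 7 of 9 members in cerebellum, anterior and posterior pituitary, against 75.8%, 50.4% and 70.8% of all starts with a peak in at least 1 of the 4 libraries, and the median height at starts with a peak in all 4 was 10.8 in WT and 14.2 in stabilized cerebellum libraries, 12.7 and 14.4 in the anterior lobe and 8.76 and 11.7 in the posterior lobe. Peaks were thus higher in the stabilized libraries over the genome, and the members' shares lie near that background. Isg15 had a peak in 2 of 12 libraries, 1 stabilized library of each pituitary lobe (2.28-fold and 2.29-fold). The ISRE-like letters shown above for Ifit1 lie within its peak in all 10 libraries that had one.

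**Figure D5:**
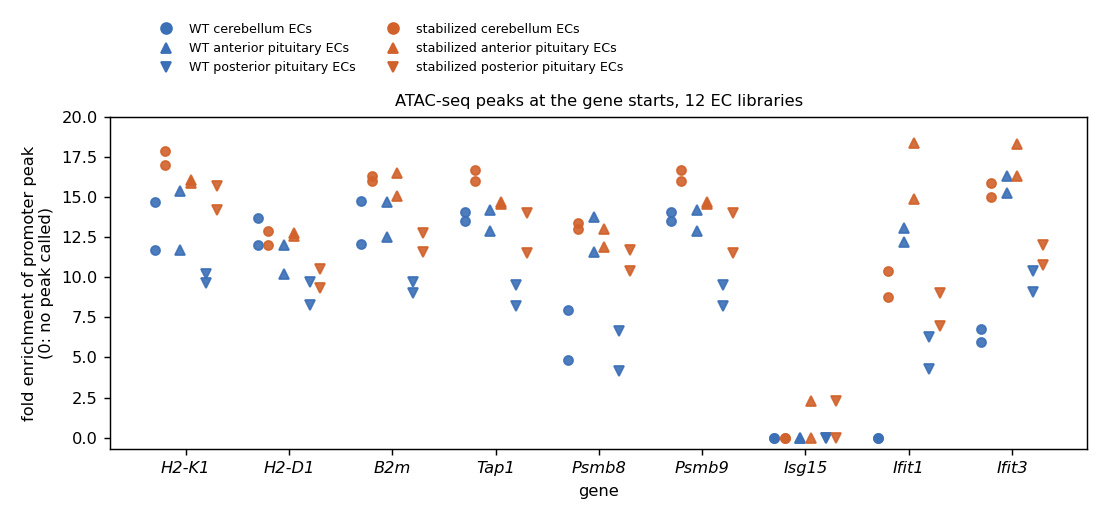
Fold enrichment of the ATAC-seq peak at the start of each member in the 12 EC libraries (0: no peak called), by tissue (marker) and genotype (colour). Ifit1 has no peak in the 2 WT cerebellum libraries, and Isg15 has one in 2 of the 12 libraries.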

How the data were processed

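RNA was amplified (NuGEN Ovation), sequenced single-end and quantified by the authors with Salmon 0.10.2 against Ensembl 92 (kallisto 0.44.0 is also named in the submitters' processing notes); the deposited tables hold estimated counts and TPM per transcript of each library. ATAC-seq reads were aligned with Bowtie2 2.3.2 to mm10, duplicates removed with Picard, and peaks called with MACS2 2.1.1.20160309 in each library; the deposited peak lists give fold enrichment and −log10 q per the file headers. Salmon divides reads of near-identical genes between them, so levels of H2-K1, H2-D1 and the H2-Q and H2-T genes are uncertain relative to each other.

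Here, estimated counts and TPM were summed per gene, and 0.0588% to 0.385% of a library's reads belonged to transcripts outside the annotation and were left out. Counts were rounded and tested in edgeR 4.0.16 (R 4.3.3; filterByExpr, TMM, quasi-likelihood, 1 coefficient per group) in 6 fits: 12 EC, 12 GFP-negative and 24 sorted libraries, and the bound, input and all 16 RiboTag libraries, the last for bound against input. Printed levels use the scaling over 24 sorted or 16 RiboTag libraries. Psmb9 and Isg15 did not pass the filter in the input fit. SE is the log2 fold change divided by the square root of F. TPM was given a pseudocount of 1. No 2 of the 40 RNA libraries were identical.

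The members and gene lists were chosen with earlier results of these data known. All 9 members are named in every comparison; from the lists, up to 3 genes that rose and 3 that fell with the largest fold change among those called could be named, and some whose other group was at 0 are not printed; for likeness, the 5 genes with the highest correlation. Alternatives were DESeq2 1.42.0, RLE scaling, no filter, a length offset, only the groups compared, a replicate block, leaving out each library, class I heavy chains summed, and other TPM and peak settings.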

Additional observations from a re-analysis of the deposited data

How the results depend on the processing

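Of 39 member calls over the 23 comparisons, 0 changed sign under the other fits of the counts, and 1, H2-D1 in bound cortex RNA, did by TPM. The gene length offset lost 10, a fit of only the groups compared 9, RLE scaling 2, and no filter and the replicate block 1 each; DESeq2 lost 0. Of 164 values that were not called, 18 were called without a filter, 13 by DESeq2 and 4 with the replicate block. With only the groups compared, 4 of 162 were. With the offset 28 of the 164 changed sign. The cause was not tested. With the offset the number of members called was 0 in posterior pituitary ECs, 3 between WT cerebellum and posterior pituitary ECs, 3 for cerebellum ECs over GFP-negative cells and 0 in bound cortex RNA. With only the groups compared it was 0, 2 and, for posterior ECs over GFP-negative cells, 3. Without a filter it was 2 in cerebellum ECs, 1 in anterior pituitary ECs, 3 for differences of EC responses, 1 in cerebellum GFP-negative cells, 7 for anterior ECs over GFP-negative cells and 1 in bound choroid plexus RNA; DESeq2 gave 2, 1, 7 and 1 for the last 4. RLE gave 0 in bound cortex RNA. Between WT cerebellum and pituitary ECs, calls gained without a filter were Psmb9 against each lobe, Ifit1 against the anterior and Tap1 against the posterior lobe. For ECs over GFP-negative cells they also included Psmb8 and Psmb9 in cerebellum and Ifit3 in the posterior lobe. With the 16 class I heavy chain genes summed, H2-D1 in bound cortex RNA fell to log2 0.61 and was lost, and 19 of 20 heavy chain values kept their side.

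With 1 library left out, the number called ranged from 0 to 1 in cerebellum ECs (Psmb9 without stabilized replicate 1), 1 to 2 in posterior pituitary ECs (B2m without WT replicate 1), 0 to 1 between WT lobes (Ifit1 without WT posterior replicate 1), 0 to 3 for differences of EC responses (without WT posterior replicate 1), 0 to 1 in cerebellum GFP-negative cells (without either stabilized library), 3 to 5 for cerebellum ECs over GFP-negative cells (3 without WT GFP-negative replicate 1), 0 to 1 in bound cortex RNA, 0 to 1 in cortex input and 2 to 6 for choroid plexus bound over input (2 and 3 without WT input replicates 1 and 2). Isg15 in anterior pituitary ECs ranged from log2 -0.25 to 2.44.

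The labels number the replicates 1 and 2 in each group. Samples of the same number correlated at -0.21 to 0.0906 in their deviations and there are only 2 pairs a comparison, so between genotypes and tissues they were taken to share only a number, except that the pituitary lobes share animals. With the replicate block H2-D1 in bound cortex RNA was lost (0 members called). Bound and input RNA came from the same homogenates, and the number within a tissue and genotype was the block there and for ECs over GFP-negative cells: 0 calls were lost, and the count was 8 and 6 for bound over input in cortex and choroid plexus, as without the block, and 6 in each tissue for ECs.

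TPM of protein-coding transcripts only left 79 of 90 member values within the spread of the replicates, and 94, 93 and 96 of 108 member and library pairs had a peak with a stricter threshold and with windows of 100 and 1000 bp. An alternative chosen after seeing the data, TPM without genes of effective length under 200, moved 87 of 90 values. Depth limited the members with the fewest reads: Psmb9 rested on 0 to 6 reads in cerebellum GFP-negative cells and Isg15 on 1 to 2 in cortex input.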
